A study of Mus musculus with 25 samples.

Results

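Female mice raised after weaning on a hypercaloric diet were compared by the diet of their dams, across the 15043 genes whose mean normalized count reached 10 in the authors' table, of 24421 genes listed there. The mean is taken over the 6 libraries of the comparison, of 25 samples in the whole study, and the 9378 genes below it carry no adjusted p. The study measured poly(A) RNA of the hypothalamus, flash frozen at 3 months of age, with a stranded mRNA library kit. All animals were wild-type C57BL/6J. In the exposed group (3 samples), dams ate a hypercaloric diet (HCD) with 52% of fat and much sucrose starting 1 month ahead of mating and ending with lactation, and the female offspring were weaned onto the same diet. In the control group (3 samples), dams ate regular chow (RD) over the same span, and the female offspring were likewise weaned onto HCD. Every animal of this comparison therefore ate HCD from weaning, and the groups differ in what the dam ate. Neither litters nor pooling are named in the labels, so p-values reflect only how these samples spread, and samples of a group may share a litter. The groups of 3 HCD-weaned males and of 3 RD-weaned females for each dam diet, of the same strain and age, are used below for comparison.

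Per-sample values cannot be given, because the library columns are numbered and match no sample's label. Fold changes are log2 ratios of HCD-dam over RD-dam offspring, each with its standard error (SE), as the authors' deposited table lists them. They look shrunken toward 0 at low counts, and a negative value is lower in offspring of HCD dams. A gene is called when its adjusted p is under 0.05. The mean normalized counts of the 24421 genes sum to 2.27e+07. The label of female sex was checked first: the Y-linked genes Kdm5d and Uty were at a mean of 0, Ddx3y at 0.159 and Eif2s3y at 0.891 normalized counts, against 3893 for Xist, the RNA that coats the inactive X chromosome. The hypothalamic label was checked by regional transcription factors. Of 22 of these, 15 reached a mean of 10, Nkx2-1 having a mean of 69.8 and Otp lying at the limit itself. All 16 cortical, 12 striatal and 15 thalamic markers listed were above that limit too, some of which the hypothalamus also expresses. How such RNA is spread over the libraries is not known here. In bulk tissue, fewer cells of a type and less RNA per cell cannot be told apart either.

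The hypothalamus senses leptin, insulin and nutrients and sets feeding, energy use and the release of pituitary hormones, and it is still wiring up around birth and during suckling in the mouse. Metallothioneins, small cysteine-rich proteins that bind zinc and copper, are induced by metals through the factor MTF1 and by glucocorticoids. Mitochondrial respiration passes electrons through complexes I to IV and uses the resulting proton gradient in ATP synthase, complex V, and most subunits are encoded in the nucleus.

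In these females 229 genes were called, 148 positive and 81 negative, which is 1.52% of the genes tested, 0.984% in the positive and 0.538% in the negative direction. Short, abundant transcripts of mitochondria, metal binding, ribosomes and protein turnover were among the genes that rose, and long transcripts of motor proteins, channels, scaffolds and chromatin regulators among those that fell. The called fold changes ran from -2.12 for Rpph1 to 1.85 for Snhg8 per the authors' deposited table, and the smallest in size was 0.58. Without adjustment 2003 genes, or 13.3%, had a p under 0.05. The median log2 fold change of all tested genes was 0.04, with 8188 of 15043 positive. Centring all fold changes on that median gave 100 positive and 96 negative genes. The median mean normalized count was 5400 for genes that rose, 1347 for genes that fell and 520 for all tested genes.

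**Figure D1:**
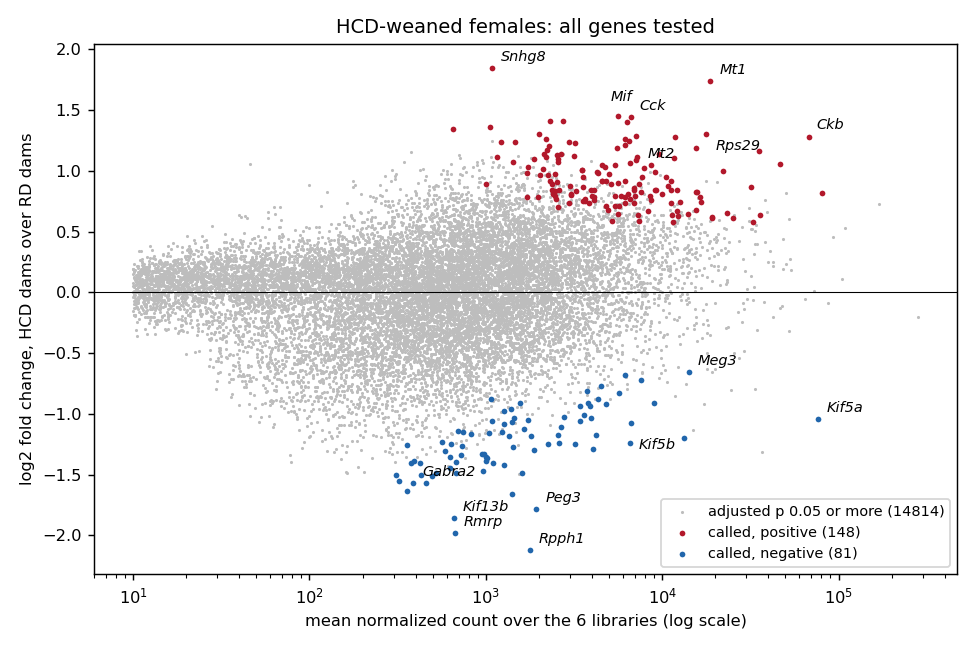
Log2 fold change (HCD over RD dams) against the mean normalized count over the 6 libraries, on a log axis, for the 15043 genes tested in HCD-weaned females. The 148 positive and 81 negative called genes lie toward high counts, and fold changes narrow toward 0 at low counts.

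Transcript length moved with the fold change across the whole table. The longest annotated transcript had a median length of 1857 bases in the genes that rose, 6877 in the genes that fell and 3383 in all tested genes. In 5 classes of equal size by length, the median log2 fold change went from 0.23 in the shortest class, through 0.13, 0.05 and -0.05, to -0.24 in the longest. The shortest class (up to 1957 bases) held 82 genes that rose and 2 that fell, and the longest class (from 5262 bases) held 2 that rose and 62 that fell. Across the 14939 genes with a length, Spearman's rho of the Wald statistic with length was -0.44 here, -0.55 in HCD-weaned males and -0.22 in RD-weaned females, whose sign rests on the order of dams assumed for that table. Genes of a library are not independent, and no p is given. The part that length has in each result was not tested beyond the values with the trend removed. That trend was fitted to the Wald statistic of all genes, so it can be removed incompletely in genes with a small SE. With the trend removed 61 genes were called, 49 positive and 12 negative, or 0.408% of 14939, and 56 of them were among the 229. These include Mt1, Mt2, Ckb, Mif, Tsc22d3, Sgk1, Cox5a, Ndufs7, Rpph1, Rmrp, Kif5a and Gabra2. The 5 not called before were Avp, Slc30a9, Faim2, Glo1 and Cdc37. Centring ended the calls of 48 genes, among them Ndufa13, Ckmt1, Mdh1, Sucla2, Atp6v0e2, Rps28, Mrps9, Psmb7, Pdia6, Gstp1 and Olig1.

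**Figure D2:**
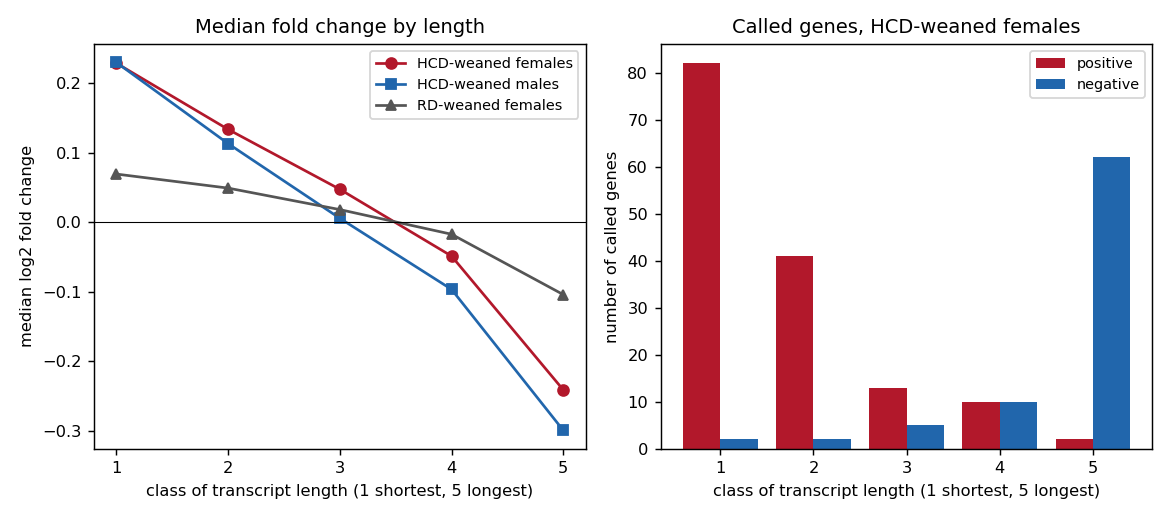
Left, median log2 fold change (HCD over RD dams) in 5 classes of transcript length for the 3 comparisons named in the legend. Right, number of called genes per class in HCD-weaned females, where 82 of the genes that rose lie in the shortest class and 62 of those that fell in the longest.

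A metallothionein gene, Mt1, held the smallest adjusted p of the table. Mt1 rose by a log2 fold change of 1.74 ± 0.21 (SE), or 3.33-fold, with an adjusted p of 3.44e-12 and a mean normalized count of 18721 per the authors' deposited table. Its neighbour Mt2 rose by 1.29 ± 0.18 (SE), or 2.44-fold, with an adjusted p of 2.79e-09. Both lie on chromosome 8 of GRCm38, Mt1 from 94179082 to 94180327 and Mt2 from 94172664 to 94173568. Mt3, the form that neurons and astrocytes make, was at 0.91 ± 0.28 (SE), its adjusted p being 0.063 per the authors' deposited table, and was not called. Mt4, a form of stratified epithelia, was under the limit. With the length trend removed the adjusted p of Mt1 was 1.37e-09 and that of Mt2 4.49e-07.

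The 250 bases before the RefSeq starts of both called metallothionein genes are shown because metal response elements, where MTF1 binds, lie in such promoters (RefSeq, GRCm38.p6, both on the plus strand). Capitals mark matches to the core letters TGCACNC or TGCGCNC on either strand. The window of Mt1 is chr8:94178839-94179088 and that of Mt2 is chr8:94172368-94172617.
Mt1: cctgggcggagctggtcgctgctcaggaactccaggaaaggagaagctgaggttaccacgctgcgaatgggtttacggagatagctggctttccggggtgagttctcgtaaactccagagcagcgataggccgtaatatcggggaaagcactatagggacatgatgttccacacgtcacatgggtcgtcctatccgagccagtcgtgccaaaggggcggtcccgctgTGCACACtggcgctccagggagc
Mt2: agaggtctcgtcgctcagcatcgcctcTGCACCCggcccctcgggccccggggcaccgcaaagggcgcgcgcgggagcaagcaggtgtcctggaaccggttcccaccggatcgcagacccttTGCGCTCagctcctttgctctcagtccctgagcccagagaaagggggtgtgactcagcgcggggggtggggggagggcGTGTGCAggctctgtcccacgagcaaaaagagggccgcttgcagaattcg
Mt1 has 1 match, 23 bases before the start, and Mt2 has 3, at 223, 128 and 50 bases before it. Mt4 has 1 match and Mt3 has 0 in the same window. Of 32851 windows of this length, 7032, or 21.4%, hold at least 1 match, so a match is a description of the letters and not a site. The RefSeq start of Mt2 lies upstream of the GENCODE gene start given above. Bases after the RefSeq starts were not searched, so these counts do not compare the whole promoters of Mt1 and Mt2.

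Other genes of zinc and iron handling moved less. Of 20 tested, 14 were positive (median 0.17, against 0.04 for all genes) and 1 was called (5%, against 1.52% of all genes). Slc39a7, which encodes a zinc transporter of the endoplasmic reticulum and Golgi, rose by 0.83 ± 0.22 (SE; adjusted p = 0.023) per the authors' deposited table, and did not pass with the length trend removed. Mtf1 itself stood at 0.01 ± 0.41 (SE). Slc30a9, a zinc transporter gene, was at 0.60 ± 0.18 (SE) and was called with the length trend removed (adjusted p of 0.029). Slc30a1, a zinc exporter gene that MTF1 controls, was at -0.06 ± 0.32 (SE) per the authors' deposited table. The ferritin heavy chain gene Fth1 was at 0.73 ± 0.23 (SE; adjusted p = 0.065), and the synaptic vesicle zinc transporter gene Slc30a3 at 1.01 ± 0.37 (SE; adjusted p = 0.14), neither called per the authors' deposited table.

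Genes that respond to glucocorticoids divided in direction. Their list had 11 positive and 6 negative members of 17 tested (median 0.41), with 2 called, both positive (11.8%, against 1.52% of all genes). Tsc22d3, which encodes the anti-inflammatory protein GILZ, rose by 1.03 ± 0.18 (SE; adjusted p = 1.69e-05), or 2.05-fold, per the authors' deposited table. Sgk1, a kinase gene that glucocorticoids induce in brain, rose by 1.12 ± 0.22 (SE), or 2.18-fold, at an adjusted p of 0.000337. Both calls were kept with the length trend removed. Of the uncalled members, Sult1a1 was at 1.01 ± 0.40 (SE), Arrdc2 at 0.98 ± 0.31 and Fkbp5, a co-chaperone gene of the receptor, at 0.58 ± 0.40 per the authors' deposited table. On the other side Zbtb16 stood at -0.98 ± 0.44 (SE), Dusp1 at -0.69 ± 0.29 and Klf9 at -0.67 ± 0.36 there, and the clock gene Per1 at -0.01 ± 0.28. None of these was called either, and the part of glucocorticoids in the values of the list was not tested. Of 11 genes of the receptors and of hormone supply, 4 were positive (median -0.12) and 0 were called. With 1.52% of all genes called, that is no lack in a list this short. The glucocorticoid receptor gene Nr3c1 was at -0.29 ± 0.23 (SE), the mineralocorticoid receptor gene Nr3c2 at -1.08 ± 0.41 and Hsd11b1, which regenerates the active hormone, at -0.48 ± 0.36 per the authors' deposited table.

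Sgk1 is shown for its promoter because 1 of its 6 RefSeq start sites has a full palindromic glucocorticoid response element within 250 bases (chr10:21993640-21993889, plus strand, GRCm38.p6). Capitals mark the match to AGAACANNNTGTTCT, a motif that reads the same on both strands, 189 bases before the start.
Sgk1: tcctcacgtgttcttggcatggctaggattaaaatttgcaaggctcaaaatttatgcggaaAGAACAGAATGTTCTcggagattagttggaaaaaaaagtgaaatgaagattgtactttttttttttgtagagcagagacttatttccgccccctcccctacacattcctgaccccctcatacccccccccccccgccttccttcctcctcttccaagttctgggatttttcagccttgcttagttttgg
Only 3 of 32851 windows, or 0.00913%, hold these letters, and of the 16 glucocorticoid-responsive genes with a window Sgk1 is the 1 that does. Tsc22d3, with 3 windows, has 0 matches. The absence of these letters in 250 bases says nothing about binding elsewhere, and which Sgk1 start was used is not in the table.

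Subunit genes of the respiratory chain were mostly positive, and those called were all positive. Of 35 tested subunit genes of complex I, the entry point for electrons from NADH, 34 were positive (median 0.63) and 8 rose. Called genes made up 22.9% of this list, against 1.52% of all genes. Ndufs7, which carries an iron-sulfur cluster next to the quinone site, rose by 1.26 ± 0.21 (SE; adjusted p = 4.05e-06) per the authors' deposited table. The other 7 were Ndufa2 (1.09 ± 0.29, SE), Ndufc2 (0.99 ± 0.26), Ndufb10 (0.95 ± 0.23), Ndufb3 (0.91 ± 0.22), Ndufa5 (0.90 ± 0.25), Ndufa13 (0.84 ± 0.24) and Ndufa1 (0.79 ± 0.22) per the authors' deposited table. The range over the list was -0.08 for Ndufb4 to 1.26. With the length trend removed 32 of the 35 were positive, the median was 0.48, and Ndufs7 was the 1 complex I gene still called. The 13 assembly factors of complex I, which build it and leave it, had a median of 0.15 with 11 positive and 0 called, and a median of 0.00 with the length trend removed.

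Complexes II and III had 12 positive of 14 (median 0.46), and the iron-sulfur subunit gene of succinate dehydrogenase, Sdhb, rose by 0.79 ± 0.22 (SE; adjusted p = 0.031) per the authors' deposited table. Complex III genes Uqcrc2 (-0.48 ± 0.23, SE) and Cyc1 (-0.03 ± 0.22) were the 2 negative members. All 11 cytochrome c oxidase subunits were positive (median 0.53). Cox5a rose by 1.28 ± 0.23 (SE; adjusted p = 2.82e-05) and Cox6a1 by 1.00 ± 0.24 (SE; adjusted p = 0.01) per the authors' deposited table. Of 16 ATP synthase subunits 14 were positive (median 0.37), and Atp5d, the delta subunit gene of the rotor stalk, rose by 1.11 ± 0.21 (SE), at an adjusted p of 0.000141. The catalytic subunit gene Atp5b was at -0.11 ± 0.20 (SE) per the authors' deposited table. Calls were 7.14% of the list of complexes II and III, 18.2% of the oxidase and 6.25% of the ATP synthase list. Of all genes 1.52% were called. With the length trend removed Cox5a and Atp5d were still called, while Sdhb and Cox6a1 did not pass.

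Enzymes that supply and buffer ATP were read from lists written after these values had been seen. Ckb, the brain creatine kinase that regenerates ATP from phosphocreatine, rose by 1.28 ± 0.18 (SE; adjusted p = 3.29e-09), or 2.43-fold, at a mean normalized count of 68214 per the authors' deposited table. The mitochondrial creatine kinase gene Ckmt1 rose by 0.64 ± 0.18 (SE), the phosphate carrier gene Slc25a3 by 0.74 ± 0.17, the ADP/ATP carrier gene Slc25a5 by 0.67 ± 0.18 and the outer-membrane pore gene Vdac1 by 0.68 ± 0.18 per the authors' deposited table. Of 16 glycolytic genes 13 were positive (median 0.30) and 3 rose. These were the phosphofructokinase gene Pfkl (0.92 ± 0.22, SE), the pyruvate kinase gene Pkm (0.64 ± 0.16) and the lactate dehydrogenase gene Ldhb (0.61 ± 0.16) per the authors' deposited table. Of 22 genes of the citric acid cycle 19 were positive (median 0.32) and 5 rose. Their values went from 0.58 for the malate dehydrogenase gene Mdh1 to 0.80 for the succinyl-CoA ligase gene Sucla2 per the authors' deposited table. Calls were 18.75% of the glycolytic and 22.7% of the citric acid cycle list, against 1.52% of all genes. Of 19 subunits of the vacuolar proton pump, which acidifies lysosomes and synaptic vesicles, 17 were positive (median 0.46), and Atp6v1e1 (0.78 ± 0.20, SE) and Atp6v0e2 (0.58 ± 0.17) rose. These 2 calls are 10.5% of the pump list, against 1.52% of all genes. Of the lists in this paragraph, Ckb, Slc25a3 and Pfkl kept their call with the length trend removed.

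**Figure D3:**
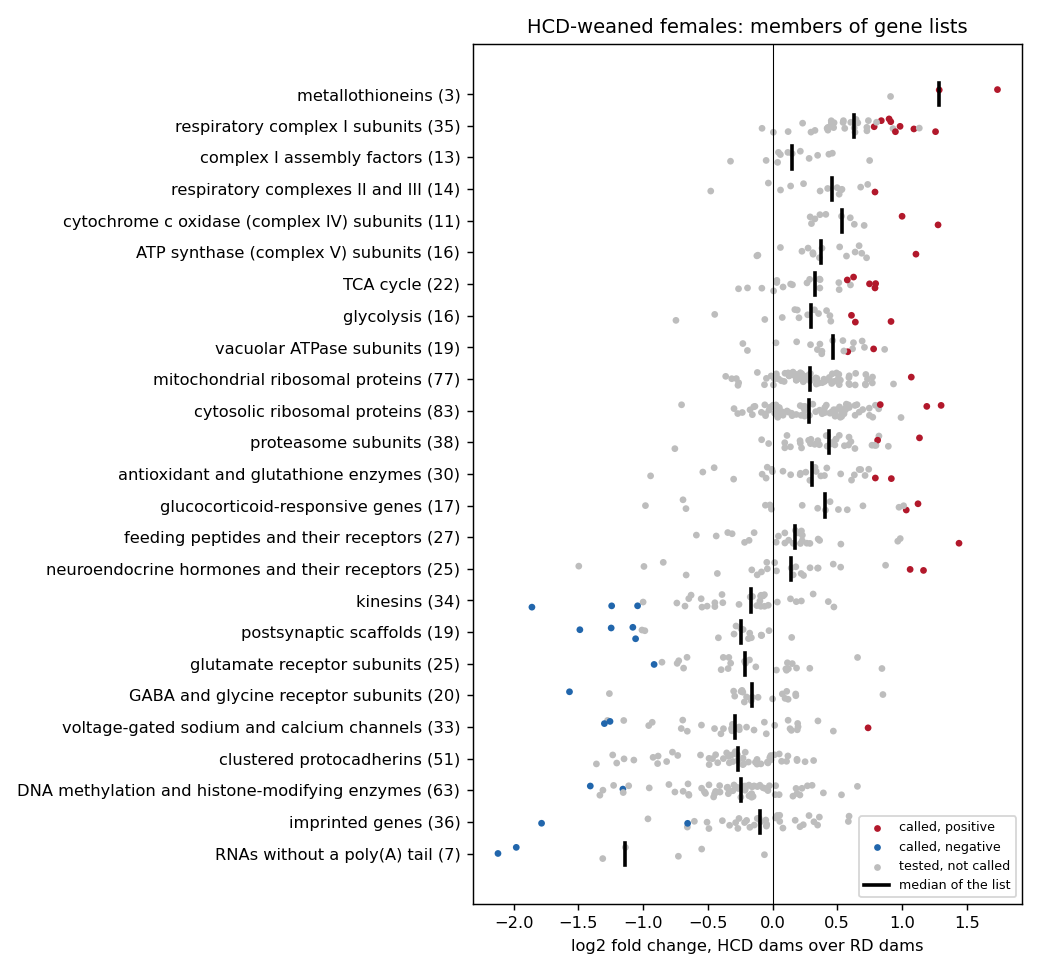
Log2 fold change (HCD over RD dams) of each tested member of 25 gene lists in HCD-weaned females, with the number tested in brackets and points spread vertically for legibility. Red and blue points are called genes, grey points are not, and the black bar is the list's median, from 1.29 for metallothioneins to -1.14 for RNAs without a poly(A) tail.

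Lists of protein synthesis and turnover had positive medians too. Of 83 tested cytosolic ribosomal protein genes, 69 were positive (median 0.29) and 3 rose (3.61%, against 1.52% of all genes). They were Rps29 (1.30 ± 0.21, SE; adjusted p = 1.55e-06), Rplp2 (1.19 ± 0.27) and Rps28 (0.83 ± 0.25) per the authors' deposited table. Ribosomal protein genes have many near-identical pseudogenes, and their counts depend on how shared reads were assigned, which is not given in the sources used here. With the length trend removed 48 of 83 were positive (median 0.11), and of the 3 Rps29 was still called. Mitochondrial ribosomal proteins had 68 positive of 77 (median 0.29), and Mrps9, of the small subunit, rose by 1.07 ± 0.31 (SE; adjusted p = 0.041) per the authors' deposited table. That is 1.30% of the list against 1.52% of all genes, and Mrps9 did not pass with the length trend removed. Of 38 proteasome subunits 35 were positive (median 0.44) and 5.26% were called, against 1.52% of all genes. Psmb10, a catalytic subunit of the immunoproteasome, rose by 1.14 ± 0.30 (SE) and Psmb7, its constitutive counterpart, by 0.81 ± 0.23 per the authors' deposited table. Neither passed with the length trend removed.

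Uchl1, a neuronal ubiquitin hydrolase, rose by 1.05 ± 0.21 (SE; adjusted p = 0.000807) per the authors' deposited table. Cytosolic heat shock proteins and chaperones had 14 positive of 16 (median 0.35) with 0 called. The inducible Hspa1a was at 0.37 ± 0.41 (SE) and the constitutive Hspa8 at 0.40 ± 0.15 per the authors' deposited table. Of 20 genes of the unfolded protein response 15 were positive (median 0.26) and 1 was called (5%, against 1.52% of all genes). This was the disulfide isomerase gene Pdia6, which rose by 0.76 ± 0.22 (SE) at an adjusted p of 0.045. Its call did not pass with the length trend removed. The chaperone gene Hspa5 was at 0.13 ± 0.20 (SE) and the stress factor gene Ddit3 at 0.42 ± 0.45 per the authors' deposited table.

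Of 30 antioxidant and glutathione enzymes, 21 were positive (median 0.31) and 2 rose (6.67%, against 1.52% of all genes). Sod1, the cytosolic superoxide dismutase, rose by 0.92 ± 0.20 (SE; adjusted p = 0.002), or 1.89-fold, per the authors' deposited table and kept its call with the length trend removed. Gstp1, a glutathione transferase with a near-identical neighbour gene, rose by 0.79 ± 0.23 (SE) at an adjusted p of 0.041 and did not keep it. Of other genes that the factor NRF2 can induce, Hmox1 was at -0.08 ± 0.42 (SE), Nqo1 at -0.05 ± 0.40 and Gclc at -0.94 ± 0.36 per the authors' deposited table, and none of these was called. Mif, a cytokine and tautomerase gene on chromosome 10 (75859353 to 75860240), rose by 1.45 ± 0.22 (SE; adjusted p = 1.33e-07), or 2.74-fold, per the authors' deposited table. Its paralog Ddt was at 0.49 ± 0.27 (SE), and its receptor genes Cd74 and Cxcr4 at 0.12 ± 0.36 and -0.04 ± 0.41 there. The cytokine gene itself is the 1 called member of its list of 6 tested (16.7%, against 1.52% of all genes).

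Inflammatory lists of 24 genes each held 0 called genes in either direction. At the 1.52% called among all genes, lists of this size need not hold any. Mif and the immunoproteasome gene Psmb10 were counted in other lists. NF-kB, cytokine and toll-like receptor genes had 10 positive of 24 (median -0.03, and 0.01 with the length trend removed). Interferon response and MHC class I genes had 19 positive of 24 (median 0.24). Of 18 immediate early genes, which follow neuronal firing, 4 were positive (median -0.27) and 1 was called (5.56%, against 1.52% of all genes). This was Jund, a stably expressed AP-1 factor. It rose by 0.90 ± 0.26 (SE; adjusted p = 0.048) per the authors' deposited table and did not pass after centring or with the length trend removed. The inducible genes Arc (-0.76 ± 0.25, SE; adjusted p = 0.079), Fos (-0.79 ± 0.41) and Nr4a2 (-0.80 ± 0.42) had negative values that were not called per the authors' deposited table. Circadian clock genes (8 positive of 19) had a median of -0.03, and 0.08 with the length trend removed, with 0 called.

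Among feeding genes Cck was the 1 called, or 3.70% of the list against 1.52% of all genes. Of 27 tested feeding peptides and receptors 20 were positive (median 0.18, and 0.03 with the length trend removed). Cck, the cholecystokinin gene, rose by 1.44 ± 0.28 (SE; adjusted p = 0.000371), or 2.71-fold, per the authors' deposited table, and kept its call with the trend removed. Its receptor genes were at 0.12 ± 0.38 (Cckar) and -0.14 ± 0.42 (Cckbr). The appetite peptide gene Npy was at 0.99 ± 0.37 (SE; adjusted p = 0.16), Pomc at 0.23 ± 0.45 and Cartpt at 0.22 ± 0.45 per the authors' deposited table, and Agrp was under the count limit. Pmch (-0.59 ± 0.42, SE) and Hcrt (-0.43 ± 0.45), peptide genes of the lateral hypothalamus, and the melanocortin receptor gene Mc4r (0.22 ± 0.39) were not called either. The SE of Pomc, Cartpt, Pmch and Hcrt is close to the largest of the table, 0.45, so only large differences were detectable for these 4. Cck is also abundant in cortex and hippocampus, whose 16 markers had a median of 0.28 with 10 positive and 0 called, from -1.19 (Prox1) to 0.92 (Nrgn). The part of that tissue in the value of Cck was not tested.

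Of 25 neuroendocrine genes 15 were positive (median 0.14), and the 2 that rose encode proteins of the secretory granule. They are 8% of the list, against 1.52% of all genes. Pcsk1n, an inhibitor of a prohormone convertase, rose by 1.17 ± 0.23 (SE; adjusted p = 0.000534), and Chga, chromogranin A, by 1.06 ± 0.26 (SE; adjusted p = 0.012) per the authors' deposited table. The call of Chga was lost with the length trend removed. The hormone genes named next were not called. Avp, vasopressin, was at -1.50 ± 0.45 (SE; adjusted p = 0.051, and 0.016 with the length trend removed), Oxt at -0.99 ± 0.45, Trh at -0.84 ± 0.40 and Crh at 0.16 ± 0.40 per the authors' deposited table. Sst, somatostatin, was at 0.87 ± 0.29 (SE), with an adjusted p of 0.098. Leptin, insulin and ghrelin signalling had 9 positive of 24 (median -0.07, and 0.00 with the length trend removed) and 0 called. The leptin receptor gene Lepr was at 0.15 ± 0.38 (SE), Insr at -0.33 ± 0.29, Socs3 at 0.09 ± 0.37 and Irs2 at -1.19 ± 0.44 per the authors' deposited table. Sex steroid receptors and enzymes (10 tested), renin-angiotensin and blood pressure genes (14) and cholesterol and fatty acid synthesis (29) had 0 called, with medians of -0.05, -0.10 and 0.01. The median of the sex steroid list was 0.13 with the length trend removed, and that of the lipid list was -0.03 after centring.

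Among the remaining genes with the largest positive values, Snhg8, a host gene of a small nucleolar RNA, rose by 1.85 ± 0.37 (SE; adjusted p = 0.000615), or 3.59-fold, per the authors' deposited table. Of 16 such host genes 13 were positive (median 0.22), and of the 14 with a transcript length 8 were positive when the length trend was removed. Snhg8 was the 1 called, or 6.25% of the list against 1.52% of all genes. Srp9, of the signal recognition particle, rose by 1.41 ± 0.36 (SE), the neuronal gene Ttc9b by 1.41 ± 0.34 and the linker histone gene H1fx by 1.36 ± 0.31 per the authors' deposited table. Scand1 rose by 1.30 ± 0.36 (SE) and Erdr1, whose reads can be shared among copies, by 1.35 ± 0.38. Of these 5, Srp9 kept its call with the length trend removed.

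The largest negative values belonged to RNAs without a poly(A) tail. Rpph1, the RNA of ribonuclease P, fell by 2.12 on the log2 scale (SE 0.45; adjusted p = 0.00133), or 4.35-fold, per the authors' deposited table, and Rmrp, the RNA of ribonuclease MRP, by 1.98 (SE 0.45; adjusted p = 0.00337). All 7 tested RNAs of this list were negative (median -1.14). They include the ribosomal precursor Rn45s at -1.31 ± 0.44 (SE) and Mir6236 at -1.14 ± 0.44, which were not called. A library made by poly(A) selection holds such RNAs as carry-over, and the part of that selection in these values was not tested. Rpph1 and Rmrp are short, and their calls were kept with the length trend removed. Replication-dependent histone genes, whose mRNAs mostly lack such a tail too, formed a separate list that went the other way. Of 11 tested 8 were positive (median 0.17, and 0.01 with the length trend removed). In that list 1 gene was called, positive (9.09%, against 1.52% of all genes), and 0 with the length trend removed.

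Kinesins, the motors that carry cargo along axons, held 3 genes that fell of 34 tested (7 positive, median -0.16). These calls are 8.82% of the list, against 1.52% of all genes. Kif5a, a neuronal heavy chain of conventional kinesin, fell by 1.04 (SE 0.21; adjusted p = 0.000436), or 2.06-fold, at a mean normalized count of 76539 per the authors' deposited table. Kif5b fell by 1.24 (SE 0.26), at an adjusted p of 0.00122, and Kif13b by 1.86 (SE 0.41), at 0.00255. The third conventional heavy chain, Kif5c, was at -0.10 ± 0.15 (SE), and the light chain gene Klc1 at 0.47 ± 0.17 (adjusted p = 0.13) per the authors' deposited table. Kif5a and Kif5b kept their calls with the length trend removed, and Kif13b did not, its adjusted p being 0.068.

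Lists of receptors, channels and scaffolds of the synapse had negative medians. Gabra2, the alpha2 subunit gene of the GABA-A receptor, fell by 1.57 (SE 0.35; adjusted p = 0.00283), or 2.97-fold, per the authors' deposited table and kept its call with the length trend removed. The other 19 GABA and glycine receptor genes were not called. The 20 had a median of -0.16, and of -0.04 with the length trend removed. Among glutamate receptors (25 tested, median -0.21, but 0.06 with the length trend removed) Grm5 fell by 0.91 (SE 0.26), at an adjusted p of 0.037. Of 33 sodium and calcium channel genes 10 were positive (median -0.29, and -0.13 with the length trend removed). The pore subunit genes Scn1a and Scn3a fell by 1.30 (SE 0.37) and 1.26 (SE 0.35) per the authors' deposited table. None of Grm5, Scn1a and Scn3a kept its call with the length trend removed. Calls were 5% of the GABA and glycine and 4% of the glutamate receptor list. In the sodium and calcium channel list they were 9.09%, 1 positive and 2 negative. Of all genes 1.52% were called. The 69 potassium channel genes had 0 called and a median of -0.07, which was -0.003 with the length trend removed.

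Of 32 vesicle release genes 16 were positive (median -0.03, and 0.09 with the length trend removed). Called members were 9.38% of the list, against 1.52% of all genes. Rab3a, the vesicle GTPase, rose by 0.74 ± 0.20 (SE), and the active zone gene Rims1 fell by 1.45 (SE 0.42) and Napb by 0.92 (SE 0.26) per the authors' deposited table. A list of postsynaptic scaffolds, written after these values had been seen, had 18 negative of 19 (median -0.24). In it 4 were called, all negative (21.1%, against 1.52% of all genes). Shank1, Shank2 and Shank3, which tie receptors to the actin skeleton, fell by 1.25 (SE 0.37), 1.49 (SE 0.42) and 1.08 (SE 0.32), and Dlg2 by 1.06 (SE 0.25) per the authors' deposited table. The PSD-95 gene Dlg4 was at -0.30 ± 0.19 (SE). None of the 7 genes called in these 2 lists passed with the length trend removed. Of 51 clustered protocadherins 9 were positive (median -0.27) and 0 were called.

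Of 63 genes of DNA methylation and histone modification, 13 were positive (median -0.24) and 2 fell (3.17%, against 1.52% of all genes). Ash1l, a histone H3 methyltransferase, fell by 1.41 (SE 0.34; adjusted p = 0.0099), and Kmt2a, also called MLL1, by 1.16 (SE 0.29; adjusted p = 0.013) per the authors' deposited table. Crebbp (-1.33 ± 0.43, SE), Tet2 (-1.31 ± 0.42) and Hdac4 (-1.23 ± 0.45) were not called, and the DNA methyltransferases were at -0.34 ± 0.35 (Dnmt1) and -0.41 ± 0.36 (Dnmt3a). With the length trend removed the median was -0.13 and neither call was kept. Of 36 imprinted genes 14 were positive (median -0.10) and 2 were called (5.56%, against 1.52% of all genes). Peg3, a paternally expressed zinc finger gene, fell by 1.78 (SE 0.39; adjusted p = 0.0025), or 3.44-fold, and Meg3, a maternally expressed noncoding RNA, by 0.66 (SE 0.17; adjusted p = 0.02) per the authors' deposited table. Igf2 was at -0.51 ± 0.31 (SE), Nnat at -0.66 ± 0.23 and Ndn at 0.59 ± 0.21. Neither imprinted gene kept its call with the length trend removed (an adjusted p of 0.064 and 0.33). Xist, also a long RNA, fell by 0.94 (SE 0.21) at an adjusted p of 0.00331 and did not pass with the trend removed.

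The other large negative values were scattered over functions. Fam171b, a membrane protein gene, fell by 1.66 (SE 0.36; adjusted p = 0.00237) per the authors' deposited table and kept its call with the length trend removed. Abhd2 (-1.63 ± 0.42, SE), the volume-regulated anion channel gene Lrrc8b (-1.55 ± 0.44) and the Hedgehog receptor gene Ptch1 (-1.51 ± 0.43) also fell, and none of these 3 kept its call.

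Markers of brain cell types showed no common movement of a whole class. Pan-neuronal genes had 8 positive of 13 (median 0.19), with Uchl1 and the tubulin gene Tubb3 (0.83 ± 0.18, SE) rising, and Rbfox3 at -0.40 ± 0.20 and Map2 at -0.64 ± 0.22 per the authors' deposited table. Astrocyte markers had 7 positive of 15 (median -0.26), and the water channel gene Aqp4 fell by 1.25 (SE 0.33), at an adjusted p of 0.023. Gfap was at -0.26 ± 0.17 (SE) and Aldh1l1 at 0.28 ± 0.25. Of 14 myelin genes 5 were positive (median -0.13), and Ermn fell by 0.81 (SE 0.24), while Mbp was at -0.20 ± 0.25 (SE) per the authors' deposited table. Microglial markers had 12 positive of 18 (median 0.25) and 0 called, with C1qa at 0.53 ± 0.30 (SE) and Cx3cr1 at -0.32 ± 0.28. Olig1, of the oligodendrocyte lineage, rose by 0.58 ± 0.16 (SE) at an adjusted p of 0.036, beside Pdgfra at -0.36 ± 0.26. The pericyte gene Rgs5 fell by 1.57 (SE 0.41; adjusted p = 0.022), with Pdgfrb at -0.26 ± 0.34 (SE) and the endothelial gene Cldn5 at 0.78 ± 0.32 per the authors' deposited table. None of Aqp4, Ermn, Olig1 and Rgs5 kept its call with the length trend removed. Calls were 15.4% of the pan-neuronal, 6.67% of the astrocyte and 7.14% of the myelin list. They were 11.1% of the oligodendrocyte precursor and 6.25% of the endothelial and pericyte list, against 1.52% of all genes.

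Neighbouring tissues were represented as follows. Of 14 choroid plexus markers 4 were positive (median -0.35) and 0 were called, with Ttr at 0.11 ± 0.30 (SE). Striatal markers had 10 positive of 12 (median 0.16) and 0 called. Hypothalamic transcription factors had 8 positive of 15, with a median of 0.03 that was -0.01 after centring and -0.13 with the length trend removed. Thalamus and habenula markers had a median of 0.02, also -0.01 under both, and Ramp3 rose by 0.77 ± 0.23 (SE; adjusted p = 0.049) per the authors' deposited table. Meningeal markers had a median of -0.06, with Ptgds, which oligodendrocytes also make, rising by 0.87 ± 0.25 (SE) at an adjusted p of 0.042. Neither Ramp3 nor Ptgds passed after centring or with the length trend removed. Their calls were 6.67% of the thalamus and habenula and 7.14% of the meningeal list, against 1.52% of all genes. Of 12 pituitary genes 3 and of 10 blood genes 5 reached the count limit, with Prl at a mean of 11.9 and S100a8 at 64.6 normalized counts, and 0 were called. The part of these tissues in the other results was not tested.

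**Figure D4:**
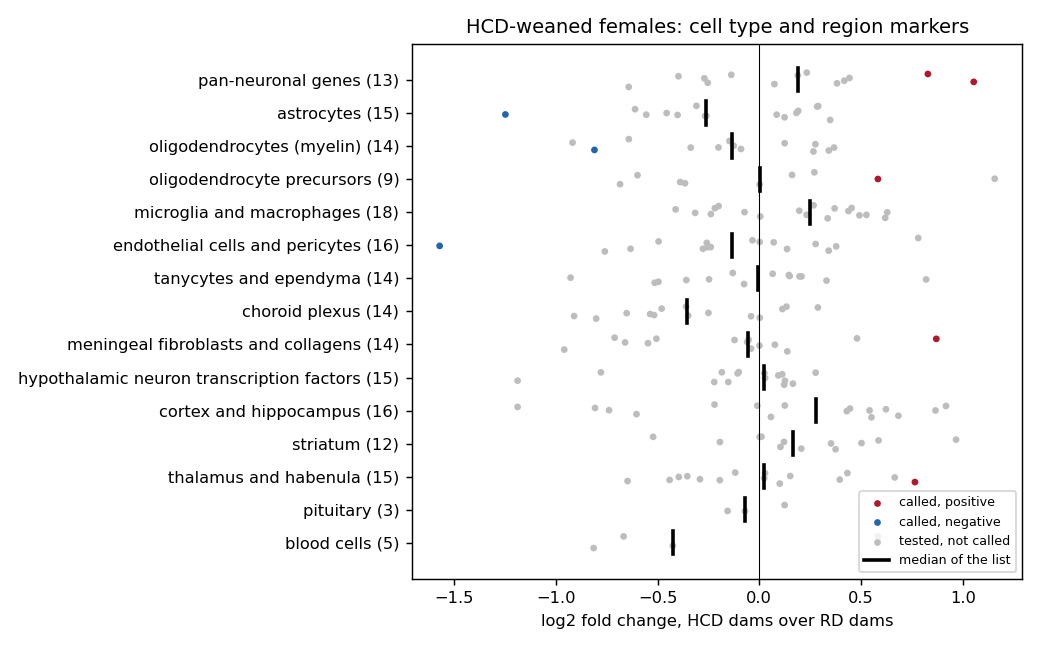
Log2 fold change (HCD over RD dams) of the tested markers of 15 cell types and regions in HCD-weaned females, with the number tested in brackets and points spread vertically for legibility. Colours and bars are as in the legend. At most 2 markers of a class were called, and class medians run from -0.42 (blood cells) to 0.28 (cortex and hippocampus).

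The same dam diets were compared in HCD-weaned males, from other animals, with 25 of 15384 genes called there (0.163%). The difference between the female and the male fold change was tested on the 14947 genes that have an adjusted p in each table. With a normal reference and Benjamini-Hochberg adjustment 0 genes (0%) differed, 96 (0.642%) had an unadjusted p under 0.05, and the smallest adjusted p was 1.00. So no sex difference was shown, which does not show that females and males responded alike. Pearson's r of the 2 fold changes was 0.64 across genes, which share the length trend. Of the 229 called genes 228 had a value in both tables, and all 228 had the same sign in males. The share of all genes with the same sign was not counted. Called genes follow the length trend that both tables have, so this count does not set them apart from other genes. The median of the called genes was 0.89 in females and 0.57 in males for positive genes, and -1.24 and -0.58 for negative genes. In 223 of 228 the female value was the larger in size, which follows in part from their having been called in females. The genes called in both were Mif, Rps29, Gstp1, Erdr1 and, named after its values were seen, the nuclear RNA Malat1 (-1.04 ± 0.30, SE, in females and -1.23 ± 0.25 in males per the authors' tables).

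Several called genes had values near 0 in males. Sgk1 was at 0.07 ± 0.28 (SE), Kif5a at -0.05 ± 0.28 and Rpph1 at -0.27 ± 0.24 in males per the authors' table, none of which differed from the female value after adjustment. Mt1 stood at 1.00 ± 0.27 (SE) in males, with an adjusted p of 0.114, and Mt2 at 0.59 ± 0.28. Respiratory complex I genes had 34 positive of 35 with a median of 0.45 in males, against 0.63 in females. By contrast the 15 hypothalamic transcription factors had a median of -0.73 in males with 0 positive, and the 12 striatal markers a median of -0.63 with 0 positive, against 0.03 and 0.16 in females. Dividing the statistic by its robust spread of 0.718 gave 3 genes that differed, Rpph1, Chrnb4 (-0.65 ± 0.45, SE, in females and 1.32 ± 0.32 in males) and Nwd2 (-0.95 ± 0.37 and 0.65 ± 0.27), all lower in females.

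The comparison with females weaned onto RD asks how the maternal diet reads out when the offspring eat chow. There 52 of 15028 genes (0.346%) were called, from other animals again. The labels name no control for those groups, and their fold changes were read in the same order of dams, so signs in RD-weaned females rest on that reading. Of 14603 genes that both tables give an adjusted p, 1 (0.00685%) differed, Mt1, at 1.74 ± 0.21 (SE) in HCD-weaned and 0.04 ± 0.25 in RD-weaned females of the authors' deposited tables (adjusted p of the difference 0.00446). If the sign of the RD-weaned table is turned, 186 genes differed, Mt1 among them (adjusted p of 0.000173). It no longer passed with the length trend removed, at an adjusted p of 0.0703. Without adjustment 730 genes, or 5.00%, had a p under 0.05. Among the next in order were Calb2 (adjusted p of 0.0572), Gabra2, Rps29, Mt2 and Arc (each 0.0742), then Enpp2, Snhg8, Dusp7, Plk2 and H2-Bl (each 0.0802), which did not pass. Mt2 was at 0.02 ± 0.24 (SE) and Rps29 at -0.06 ± 0.25 in RD-weaned females. Arc was at 0.72 ± 0.26 (SE) there against -0.76 ± 0.25 in HCD-weaned females, and Gabra2 at 0.32 ± 0.28 against -1.57 ± 0.35.

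Across the 220 called genes with both values, 186 had the same sign in RD-weaned females (34 if that table's sign is turned), 0 were called there, and 155 had an unadjusted p of the difference under 0.05. The median of the positive genes was 0.89 in HCD-weaned and 0.16 in RD-weaned females, and that of the negative genes -1.24 and -0.26. Since the genes were chosen for passing in HCD-weaned females, a smaller value elsewhere is in part built into the choice. Pearson's r of the fold changes was 0.32 across genes, and -0.32 with the sign turned. Complex I genes had a median of 0.06 (25 positive of 34) and cytosolic ribosomal proteins of -0.04 (27 positive of 81) in RD-weaned females, against 0.63 and 0.29. The choroid plexus list, at -0.35 in HCD-weaned females, had a median of 0.57 in RD-weaned females. Cck was at 0.81 ± 0.28 (SE) and Peg3 at -0.86 ± 0.29 there, and neither was called.

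**Figure D5:**
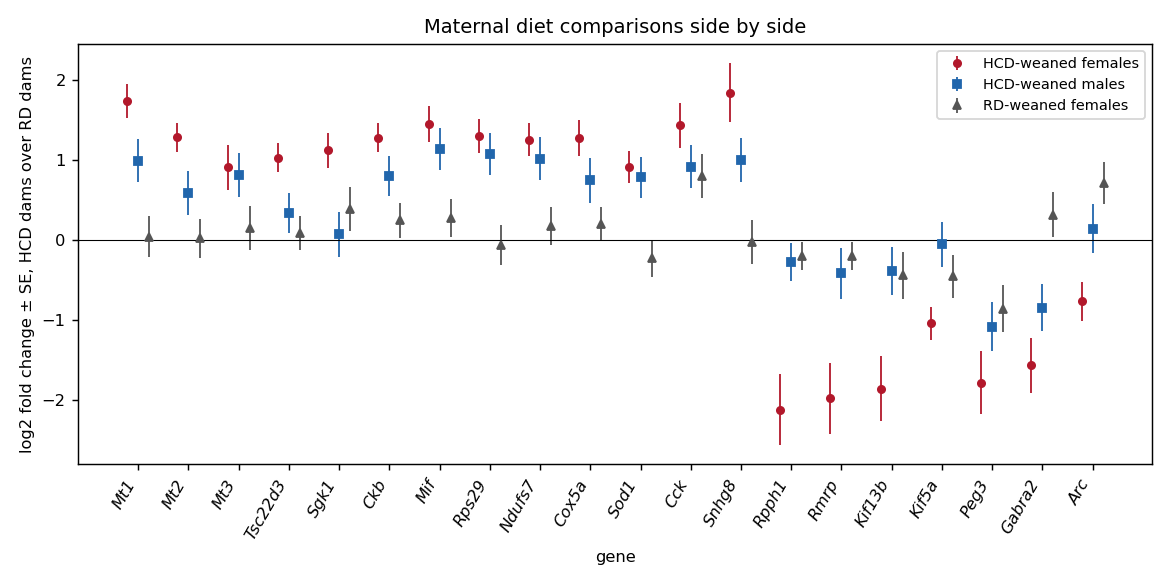
Log2 fold change (HCD over RD dams) with its SE (bars) for 20 genes in HCD-weaned females, HCD-weaned males and RD-weaned females, as the authors' deposited tables list them. Mt1 stands at 1.74, 1.00 and 0.04 in that order.

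At the count limit the table changes little. Just inside it, Gtsf1l had a log2 fold change of 0.15 ± 0.31 (SE), and just outside it Glis1 had one of 0.16 ± 0.31 per the authors' deposited table. Between means of 9 and 10 lay 128 genes, and between 10 and 11 lay 114.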

How the data were processed

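DESeq (no version) and the build mm10 come from the submitters' processing notes. Which aligner, counting tool and annotation were used is not given there or in the labels. The authors' tables of their own comparisons, 3 of 12 deposited files, were used. Per the file headers, each gene's mean is a signal in normalized counts, and the fold change and its SE are on the log2 scale. The Wald statistic is a score in the authors' deposited tables, and the p-value and adjusted p-value are the authors' own, from DESeq. The 48 library columns of counts and regularized log values match no label and were not used, so the depth per sample is not given and the planned count test was replaced by the authors' test. Positive was read as higher in HCD-dam offspring, since the labels call the RD-dam group the control.

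Differences between comparisons were divided by the root of the summed squared SE, referred to the normal distribution, two-sided, and adjusted by Benjamini-Hochberg. Shrinkage of the fold changes can make this test conservative, or uneven where it differs between tables. The length trend of the Wald statistic, over the longest GENCODE vM21 transcript of 14939 genes (99.3%), was removed by lowess with a fraction of 0.3 (statsmodels 0.14.6, scipy 1.17.1, pandas 2.3.3, Python 3.11.15). The steps were also run on simulated statistics with independent genes, a linear length trend and no trend shared between comparisons. That is simpler than these data, so the run does not show how the steps behave on them. Fold changes with the trend removed are the remaining statistic multiplied by the SE. Of 1485 symbols in 60 lists 1472 occur in the tables. Genes and lists were chosen with earlier results of these data known, and 6 lists were added after their values were seen. Named were called genes with the 10 largest fold changes each way, the 10 smallest adjusted p, called list members, list members of high count or needed role, and up to 10 genes per difference. Promoters are from RefSeq, GRCm38.p6, 250 bases before each start. A few genes that the naming rule selects are not reported here.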

Additional observations from a re-analysis of the deposited data

Results flagged for a closer look

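With the RD-weaned table read in the same order of dams, Mt1 was the gene whose maternal diet effect differed between HCD-weaned and RD-weaned females by a test of the difference itself (an adjusted p of 0.00446), with log2 fold changes of 1.74 ± 0.21 and 0.04 ± 0.25 (SE). If the sign of the RD-weaned comparison is turned, 186 genes differed, Mt1 among them and in the same direction (an adjusted p of 0.000173). With the length trend removed the adjusted p was 0.0703. Mt1 values in single animals are not given here.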

How the results depend on the processing

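No paired analysis was possible because the library columns carry no replicate number. For the same reason edgeR and DESeq2 on the counts, other size factors, leaving out replicates and replicate blocks were not run. The 229 called genes became 450 at an adjusted p under 0.10 and 63 under 0.01. They became 56 with the statistic divided by its robust spread of 1.12, 61 with the length trend removed and 58 with length and GC removed. The count stayed within 1.5 times with no filter, a mean of at least 100, centring or a minimum fold change. Centring kept 181 and length removal 56 of the 229. Centring moved each value by 0.04, so it could not turn the sign of a call, the smallest being 0.58 in size. Calls have large statistics, so the 0 changes of sign under these 2 settings say little. The 0 genes that differed from males became 3 with the robust spread. The 1 gene that differed from RD-weaned females became 12 at an adjusted p under 0.10, 2 (Mt1 and Calb2) at a mean of at least 100, 12 with the robust spread, 0 with the length trend removed and 186 with the sign of the RD-weaned table turned. The median of 4 of 60 lists changed sign on centring, of 8 of 60 on length removal and of 1 of 59 (blood cells, to 0.58) at a mean of at least 100. The cause of these shifts was not tested. Depth per sample is unknown, and the SE of up to 0.45 limits what could be detected.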
